A study of Mus musculus with 3 samples.

Results

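Malat1 and Neat1 are neighbouring genes of mouse chromosome 19 that encode nuclear long noncoding RNAs (lncRNAs), and they were examined here in ChIP-seq data for PHF10 from adult mouse brain. They were chosen by their PHF10 peaks: peaks of either replicate within 1000 bp of any annotated transcription start site (TSS) of Malat1 or Neat1 were taken. The rule found 2 of the 392 peaks in the lists, 1 in each replicate, and both belong to 1 of the 303 sites obtained when overlapping peaks were merged. This site lies at the start of Malat1, and 0 peaks were found at Neat1. Only 0.715% of all annotated genes had a peak, so that a gene without one is the usual case. Since the peaks themselves selected the genes, their heights and ranks below are a description and were not tested.

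The material was chromatin of C57BL/6 mice at 120 days after birth. The PHF10 group had 2 replicates, precipitated with a non-commercial rabbit antibody against PHF10, and the control was 1 library made with rabbit IgG and labelled preimmune. A single whole brain was used for an immunoprecipitation, so that neurons and glia of all regions contributed, and the cell type behind a peak cannot be told apart. The description of the series names cerebellum and a younger age, whereas the sample labels name brain and 120 days, which are used here. The antibody was not specific for an isoform, and the PHF10 isoforms cannot be told apart in these peaks. The IgG library entered through the fold and p-value of each peak and has no list of its own.

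Malat1 RNA is one of the most abundant lncRNAs of the nucleus and is strongly expressed in neurons. It gathers in nuclear speckles, the bodies in which splicing factors are stored. Neat1 RNA is the scaffold of paraspeckles, bodies that form around it next to the speckles and hold RNA-binding proteins such as SFPQ and NONO. PHF10, also called BAF45a, is a subunit of PBAF, a SWI/SNF complex that remodels nucleosomes with the energy of ATP and is found at promoters of active genes.

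The sequence under the Malat1 peaks is shown here since the position of the summits, the short CpG-containing stretch around them and the motifs described below all lie within it. The promoter is the RefSeq entry for GRCm38.p6, chr19:5802623-5802922, minus strand, from 250 bases before the gene start to 50 bases after it. Its capitals mark the occurrences of TGACG, of its reverse complement CGTCA, and of TTCCGG.

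Malat1 promoter: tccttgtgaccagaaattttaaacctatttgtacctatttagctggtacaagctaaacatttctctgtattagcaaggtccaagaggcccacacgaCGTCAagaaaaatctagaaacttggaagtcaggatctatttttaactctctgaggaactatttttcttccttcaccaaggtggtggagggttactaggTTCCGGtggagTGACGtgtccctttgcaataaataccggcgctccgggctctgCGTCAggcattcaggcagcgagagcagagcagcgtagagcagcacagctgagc

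The second stretch covers 101 bases centred between both PHF10 summits, chr19:5802580-5802680 on the minus strand of GRCm38.p6, and overlaps the end of the first. Its capitals mark the CpG dinucleotides.

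Malat1 summits: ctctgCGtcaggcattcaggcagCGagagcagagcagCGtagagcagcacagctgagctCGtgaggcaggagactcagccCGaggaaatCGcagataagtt

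The stretch around the summits held 6 CpG and had a GC content of 58.4%, against 10 CpG and 47.0% in the 300-base promoter window.

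In replicate 1, the Malat1 peak ran from 5802450 to 5802831 of chromosome 19 in mm10, a width of 382 bp, with its summit at 5802634. Its fold enrichment over the IgG background was 14.1, its −log10 p was 38.0 and its −log10 q was 30.7. In replicate 2, the peak ran from 5802443 to 5802813, a width of 371 bp, with its summit at 5802627. Its fold was 11.4, its −log10 p 27.6 and its −log10 q 21.1. Both peaks thus covered nearly the same stretch: 364 of the 389 bp of the merged site (93.6%) lay in both, and the summits were 7 bp apart. The median distance between the summits of the 89 sites that had a peak in both replicates was 34.0 bp, and 18 of them had summits as close as those at Malat1 or closer.

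The fold that MACS2 reports adds 1 to the fragments and to the background, and it can be solved together with the p-value for the number of fragments at the summit. At Malat1, 54 fragments covered the summit in replicate 1 and 36 in replicate 2, whereas the median over all nuclear peaks was 22 fragments in replicate 1 and 20 in replicate 2. The counts at Malat1 were therefore 2.45 times the median in replicate 1 and 1.80 times the median in replicate 2. Replicate 1 was the deeper library, with a depth of 1.38 relative to the IgG library against 1.14 for replicate 2, and after scaling to the IgG library the summits held 39.1 and 31.5 fragments. The IgG background used at the Malat1 summit was 1.85 fragments in both replicates. This is the genome-wide background, so that the IgG signal around Malat1 did not exceed the genome average, which held in all for 169 peaks of replicate 1 (67.3%) and 94 peaks of replicate 2 (66.7%), Malat1 included. Without the added 1, the plain ratio of PHF10 to IgG was 21.1 in replicate 1 and 17 in replicate 2.

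Counting error alone gave a 95% Poisson interval of 40.6 to 70.5 fragments at the summit in replicate 1 and of 25.2 to 49.8 in replicate 2. These intervals correspond to folds of 10.6 to 18.2 and of 8.08 to 15.6, which overlap, so that the difference between the replicates at Malat1 was not larger than counting error. They cover neither the error of the IgG background nor the spread between animals. The labels do not state which replicate came from which animal.

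Malat1 stood near the top of both lists. In replicate 1 its peak ranked 3 of 251 by fold, by −log10 p and by −log10 q, 5 by fragments and 14 by width. In replicate 2 it ranked 5 of 141 by fold, 7 by −log10 p and by −log10 q, 9 by fragments and 12 by width. The fold was 2.40 times the median of the list in replicate 1 (5.85) and 1.84 times that of replicate 2 (6.18). The plot of ranked folds shows the Malat1 peak in the steep part at the left of each list.

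**Figure D1:**
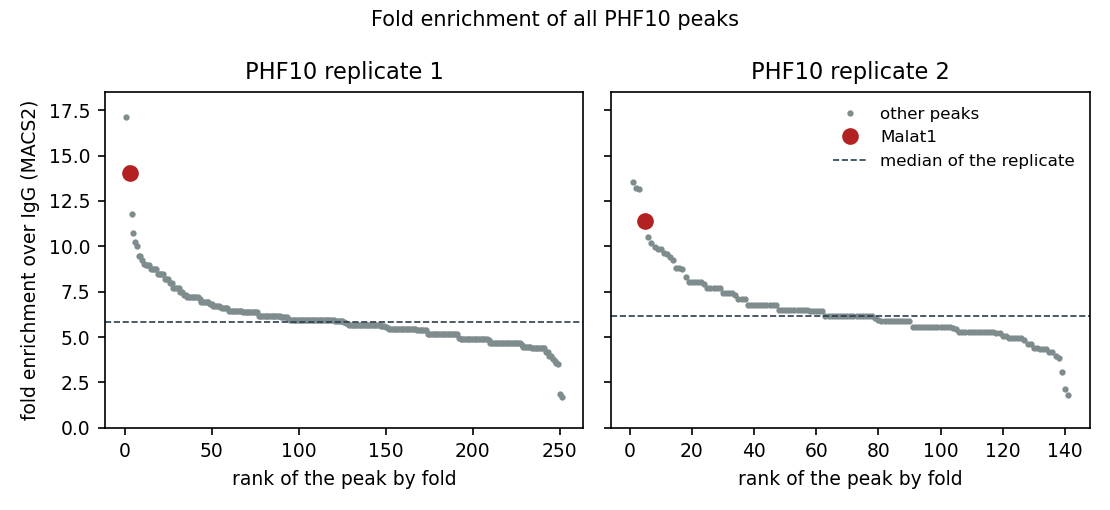
Fold enrichment over IgG of all PHF10 peaks (y axis) against their rank by fold (x axis), with 251 peaks of replicate 1 at the left and 141 peaks of replicate 2 at the right. Each point is 1 peak, the red point is Malat1 (fold 14.1 and 11.4), and the dashed line is the median of the replicate (5.85 and 6.18).

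Averaged over both replicates, the fold at the Malat1 site was 12.7 ± 1.88 (SD, n = 2) and the −log10 p was 32.8 ± 7.32 (SD, n = 2). By either value the site ranked 3 of the 89 sites shared by the replicates, whose median mean fold was 6.64. By mean fold it also ranked 3 of all 303 sites. The sites above it were those at Polr2a, the gene of the catalytic RNA polymerase II subunit RPB1, with folds of 17.1 and 13.2 (15.2 ± 2.74), and at Gm22068 and Tex14 with folds of 14.3 and 13.2 (13.7 ± 0.824). Among the next sites below it was Tob1, a gene for an antiproliferative protein, with folds of 7.71 and 13.5 (10.6 ± 4.12). The folds of each of these sites overlapped the range from 11.4 to 14.1 at Malat1. Within each replicate, Polr2a and Gm22068 were above Malat1, whereas Tob1 was below it in replicate 1 and above it in replicate 2. The order was not tested.

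The sites most like Malat1 were taken as those with the smallest distance in log2 fold over both replicates. They included Gm22068 with Tex14 (distance 0.21), Polr2a (0.36), Zic4 (0.45), a gene for a zinc finger factor of cerebellar neurons, and Rnu1a1 (0.52), a gene for the U1 spliceosomal RNA. The folds were 10.8 and 9.65 at Zic4, and 10.0 and 9.99 at Rnu1a1. The fold at Malat1 in replicate 1 was 1.23 times that in replicate 2. The median of this ratio over the 89 sites was 1.03, and 51 of them were higher in replicate 1. The plot of one replicate against the other shows Malat1 below the line of equal fold and in a small group apart from most sites.

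**Figure D2:**
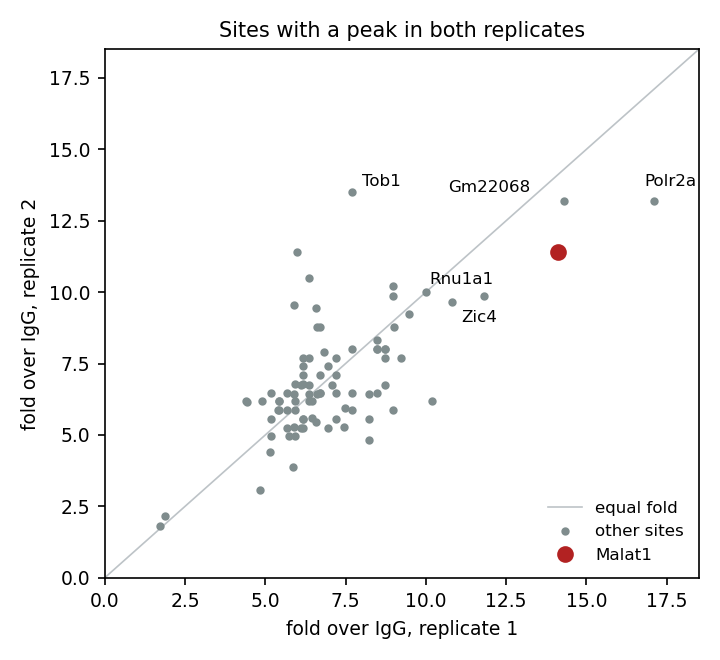
Fold over IgG in replicate 2 (y axis) against replicate 1 (x axis) for the 89 sites shared by both replicates, each point being 1 site. Malat1 (red, 14.1 and 11.4) lies near Gm22068 and Polr2a, and the grey line marks equal fold.

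GENCODE M21 lists Malat1 (ENSMUSG00000092341.3) as a lincRNA gene of the minus strand from 5795690 to 5802672, with 4 transcripts. The full-length transcript spans 6983 bp and starts at 5802672, and a shorter one starts 1 base further downstream, at 5802671. The site covered both of these starts. The summit lay 38 bp downstream of the start of the full-length transcript in replicate 1 and 45 bp in replicate 2, within the transcribed region. The other annotated starts lie inside the gene, at 5797464 and 5796952, and were 4979 and 5491 bp from the nearest peak. The listed PHF10 peaks were thus at the 5′ end of the gene and not along its body. Measured to the nearest Malat1 start, the mean distance of the summits was 40.5 bp. Over the 289 sites with a TSS within 1000 bp, the median summit lay 8.00 bp downstream, 158 (54.7%) lay downstream, and 126 (43.6%) lay from 1 to 100 bp downstream as at Malat1.

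Neat1 (ENSMUSG00000092274.3) is annotated as a lincRNA gene of the same strand, from 5824708 to 5845478, with a length of 20771 bp and 4 transcripts. Its starts at 5845478 (the full-length form), 5845476 and 5845259 lay 42647, 42645 and 42428 bp from the nearest PHF10 peak. The internal start at 5828012 lay 25181 bp from it. In each case the nearest peak was that of Malat1 itself. There were 0 peaks within 1000 bp of any Neat1 start in either replicate and 0 anywhere in the Neat1 gene, and the RefSeq starts at 5845480 and 5845478 gave the same result. Neat1 shares this with most genes, as 0.404% of lncRNA genes and 0.715% of all annotated genes had a peak in either replicate.

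A gene without a listed peak had too few fragments to be called, which is not the same as no signal. At the genome-wide background, a place needed at least 14 fragments in replicate 1 and 12 in replicate 2 to pass the p-value at which the lists end (−log10 p of 5). That number of fragments corresponds to a fold of 3.90 in replicate 1 and of 4.03 in replicate 2. Malat1 had 3.86 and 3 times this number of fragments. Signal at Neat1 under this limit was not detectable in the lists, and the limit is higher wherever the IgG signal exceeds the genome-wide background. The difference between Malat1 and Neat1 therefore had no test, since Neat1 has no value in the files. The authors kept reads with a single alignment, and the sequence at both genes allows such reads: all 290 stretches of 100 bp in the Malat1 site and all 1902 stretches of 100 bp around the Neat1 start were found at 1 place in GRCm38.p6. With stretches of 36 bp both shares were also 100% after rounding. Regions on the blacklist of the authors had been removed from the lists, and whether Neat1 was among them was not tested.

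The starts of Malat1 and Neat1 are 42806 bp apart, and both genes are read in the same direction, so that Neat1 lies upstream of Malat1 with its 3′ end 22036 bp from the Malat1 start. The nearest site beyond Malat1 on the far side of the pair was 2971475 bp away, at Tmem179b, a gene for a membrane protein, with folds of 5.93 and 5.87. On the opposite side the nearest site was 2033974 bp away, at Kmt5b, a gene for a histone H4 lysine 20 methyltransferase, with folds of 6.44 and 5.58. Of the 42 genes with a TSS within 250 kb of the Malat1 summit, 24 of them protein-coding, 2 had a peak within 1000 bp of a TSS. These were Malat1 and Gm37376, an unclassified transcript of the opposite strand within Malat1 whose start is 502 bp from the same site. Both counts rest on the Malat1 site alone. A peak was found for 0 of the 24 protein-coding genes, which is near the share over all annotated genes, coding or not (0.715%), and is therefore not a result about the region. The share over protein-coding genes alone was not computed. One of the 24 was Dpf2, a gene for another BAF45 subunit, which starts 110338 bp from the start of Malat1.

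Chromosome 19 held 8 sites, 5 of them in both replicates. Malat1 had the highest mean fold of the 8, followed by Dusp5, a gene for a MAP kinase phosphatase, with folds of 7.08 and 6.74. The other sites in both replicates were Kmt5b, Tmem179b and Zfand5, and the lowest was Fth1, which encodes the ferritin heavy chain, with a fold of 4.92 in replicate 1 alone. The map of the region shows the isolated Malat1 peak and the empty Neat1 gene.

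**Figure D3:**
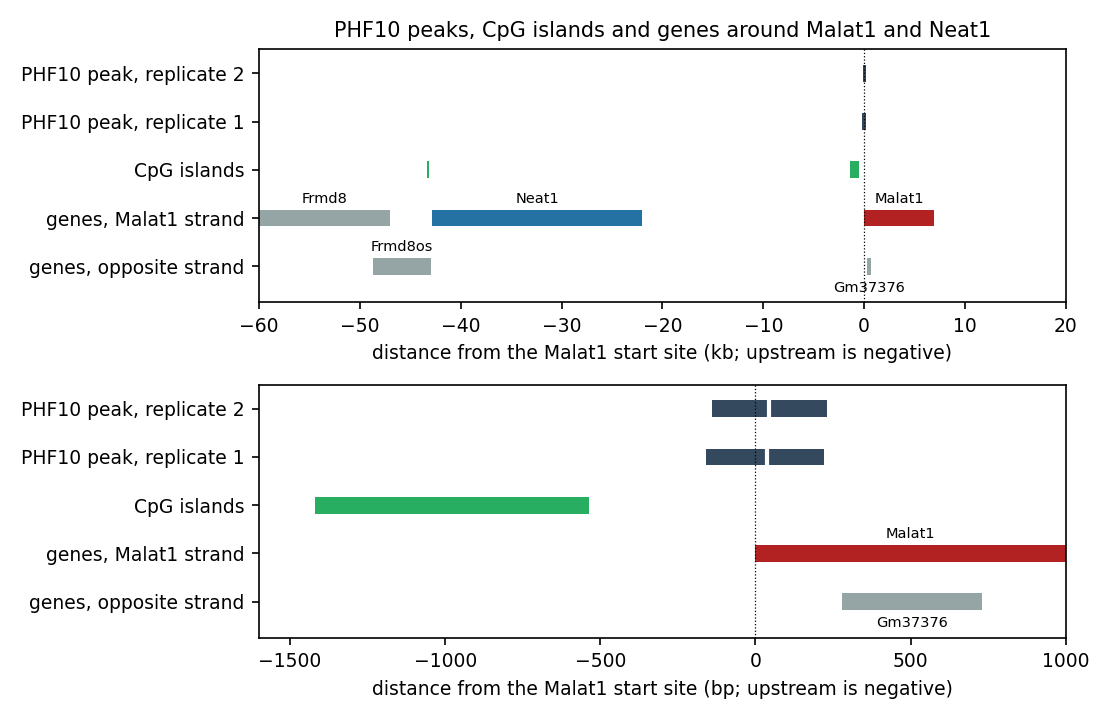
Genes, CpG islands and PHF10 peaks around Malat1 and Neat1, in kb (top) and bp (bottom) from the Malat1 start along its direction of transcription; genes of the protein-coding, lincRNA and antisense classes are drawn, with Gm37376. The peaks run from −159 to 222 bp in replicate 1 and from −141 to 229 bp in replicate 2 (white ticks, summits at 38 and 45 bp), the nearest island ends 538 bp before the start, and the start of Neat1 at −42806 bp has no peak.

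Most PHF10 sites touched a CpG island, a stretch in which CpG dinucleotides have been kept. With islands of at least 200 bp, a GC content of at least 50% and an observed to expected CpG of at least 0.6 in repeat-masked sequence, 255 of the 301 nuclear sites (84.7%) touched one and 46 did not. The Malat1 site was among the 46. An island was nevertheless close: it ran from 5803210 to 5804091, 882 bp long with a GC content of 56.9% and an observed to expected CpG of 0.997, and ended 379 bp upstream of the site. Without masking of repeats and with islands of at least 500 bp and stricter composition the same distance was obtained. With islands as short as 100 bp, the site itself held one, from 5802590 to 5802725, which is 136 bp long, has a GC content of 61.0% and an observed to expected CpG of 0.884, and spans the start of Malat1. Whether Malat1 counts as a promoter without an island thus depended on the minimum length. The start of Neat1, which had no peak, was 329 bp from an island of 222 bp with a GC content of 59.5%. Under the stricter definition of at least 500 bp this island was lost, and the island nearest the Neat1 start was 41387 bp away, next to Malat1, so that a nearby island at both genes depended on the definition too.

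Malat1 differed from most sites in base composition more than in CpG. In 300 bp around its summits the GC content was 45.0%, against a median of 66.0% over the nuclear sites, and only 2 of the 301 sites had a lower value. In 1000 bp it was 40.6%, against a median of 61.2%, and 0 sites had a lower value. The 300 bp held 12 CpG (median 29.0, with 39 sites holding fewer), but relative to the GC content the observed to expected CpG was 0.806, close to the median of 0.891, and 96 sites were lower. In narrower windows the ratio rose to 0.919 (200 bp, with 156 sites lower). In wider ones it fell to 0.670 (500 bp, with 53 sites lower) and 0.656 (1000 bp, with 56 sites lower). The ratio at Malat1 was thus highest close to the summits. The median over the nuclear sites fell less with width, from 0.914 (200 bp) to 0.873 (500 bp) and 0.791 (1000 bp).

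The same features were compared over gene starts, in windows from 250 bases before to 50 bases after the start. Malat1 had a GC content of 47.0%, 10 CpG and an observed to expected CpG of 0.604. Neat1 had 53.7%, 13 CpG and 0.625. The median of all 55400 gene starts was 48.0%, 4 CpG and 0.274, that of 21931 protein-coding genes was 55%, 11 CpG and 0.524, and that of 13369 lncRNA genes was 47.7%, 4 CpG and 0.234. Both members thus had more CpG than the median lncRNA gene start and about as many as the median protein-coding one, and Neat1 without a peak had slightly more than Malat1.

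Among the 46 sites without an island, 19 (41.3%) had a peak in both replicates, the median mean fold was 6.40 and the range was 4.41 to 13.7. Among the 255 sites with an island, 68 (26.7%) had a peak in both replicates, and the median was 5.68 with a range of 3.50 to 15.2. The highest of the sites without an island were Gm22068 with Tex14 (13.7), Malat1 (12.7), Zic4 (10.2), Rnu1a1 (10.0) and A330023F24Rik with Gm37027 (8.90), a host transcript of microRNAs. Gm22068 had the same GC content as Malat1 (45.0%) and a similar observed to expected CpG (0.794), whereas Zic4 had a GC content of 46.0% with a ratio of 0.227. These sites were compared as a description, since their folds were known when the genes were chosen.

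**Figure D4:**
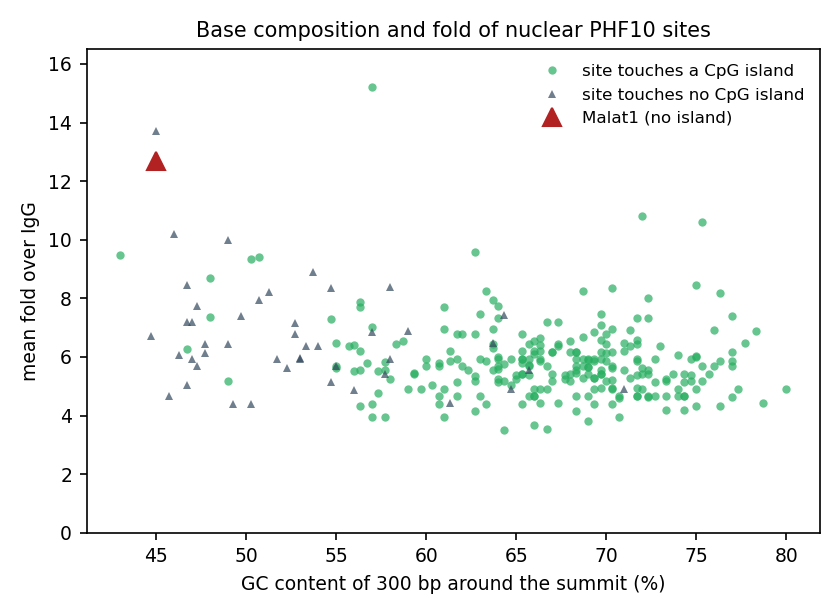
Mean fold over IgG (y axis) against the GC content of 300 bp around the summit (x axis, %) for 301 nuclear sites, as circles where the site touches a CpG island and triangles where it does not. Malat1 (red, 45.0% and 12.7) lies at the upper left, beside Gm22068 (45.0% and 13.7), whereas most sites lie around the median GC content of 66.0%.

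In the 300-base promoter window of Malat1, 12 motifs were searched on both strands. TGACG, the short form of the cyclic AMP response element, was found 3 times. In the printed sequence it stands once as TGACG, with its first base 45 bp before the start, and 2 times as CGTCA on the opposite strand, with its first base 154 bp and 3 bp before the start. The last of these spans the start itself and was 42 bp from the mean summit, and the others were 84 and 194 bp from it. TTCCGG, the core of ETS factor sites, was found once, 56 bp before the start and 95 bp from the mean summit. TGACG was present in 15.9% of the 55400 promoter windows and in 39.2% of the 395 windows of genes with a PHF10 peak, and TTCCGG in 10.3% and 25.1%. Both motifs contain CpG, and the part of the GC content in these shares was not tested.

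Variant spellings were not searched, and the letters of the other motifs were not in this window. These were the TATA boxes TATAAA (17.1% of all windows, 9.62% of those of genes with a peak) and TATATA (9.23% and 4.30%), CCAAT (38.4% and 37.5%), the GC box GGGCGG (22.7% and 65.6%), and the full cyclic AMP response element TGACGTCA (1.27% and 4.81%), which contains the short form. The others were the E box CACGTG (5.37% and 7.85%), the NRF1 core GCGCATGC (1.97% and 8.86%), the YY1 motif CCATNTT (20.1% and 12.7%), the AP-1 motif TGANTCA (7.92% and 2.78%) and the ZNF143 core ACTACA (11.5% and 6.33%). A GC box was thus present in most windows of genes with a peak and not in that of Malat1. Each window lies at the gene start, whereas the peak may lie at another TSS of the gene. A match or its absence is a description of the letters and not of a bound factor.

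Other lncRNAs of the nucleus or the brain were examined as a list of 38 genes, of which 37 were found in the annotation. Of these, 1 (2.70%) had a peak within 1000 bp of a TSS, which was Malat1, against 0.715% of all 55536 annotated genes (397) and 0.404% of 13374 lncRNA genes (54). A peak in both replicates was again found for 1 of the 37, against 0.211% of all genes (117) and 0.120% of lncRNA genes (16). Malat1 had been chosen for its peak, so that the list says nothing beyond its other members. These included Meg3, Rian, Miat and Snhg11, which are abundant in neurons, Xist, which silences the X chromosome, and Gas5 and Snhg1, which host small nucleolar RNAs, and 0 of the other 36 had a peak.

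Over the whole annotation, 52 sites lay within 1000 bp of an lncRNA TSS. Of these, 44 also lay within 1000 bp of the TSS of a protein-coding gene, and for them the lncRNA cannot be told apart from its coding neighbour. The other 8 sites, Malat1 among them, had no such neighbour, and 4 of the 8 had a peak in both replicates. Malat1 had the highest mean fold of the 52, and the second was 8.90. That second site belonged to A330023F24Rik with Gm37027, with folds of 9.01 and 8.78. The other sites without a coding neighbour in both replicates were Gm28872 with Rnu11, a gene for the U11 spliceosomal RNA (7.48 and 5.93), and Gm27032 with Mir124a-3, a gene for the neuronal microRNA miR-124 (7.20 and 5.56). Those in 1 replicate were 1810044D09Rik (6.84), Gm30238 (5.93) and 2410006H16Rik with Snord49a and Snord49b (5.68) in replicate 1, and Gm12059 (6.18) in replicate 2. The median mean fold of the 8 sites was 6.54 and the lowest was 5.68. Thus 3 of the other 7 also lay within 1000 bp of an annotated small RNA gene, whereas Malat1 did not.

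Since Neat1 RNA works together with proteins, the genes of 23 paraspeckle proteins were examined. Of these, 2 (8.70%) had a peak, each in 1 replicate, against 0.715% of all genes, and 0 had a peak in both. The listed genes encode proteins, whereas all genes include many noncoding ones. The share over protein-coding genes alone was not computed, so that these percentages are not like for like. Zc3h6, a gene for a zinc finger protein whose site also lies within 1000 bp of a TSS of Gm10762, had a peak in replicate 2 at 128967169 to 128967443 of chromosome 2, with 16 fragments, a fold of 5.26, a −log10 p of 7.95 and a −log10 q of 2.76. This fold was under the median of the replicate (6.18). Sfpq, Nono and Pspc1, which encode the core proteins of the paraspeckle, had no peak, and neither did Smarca4, the gene of the SWI/SNF ATPase BRG1.

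Of 30 genes for proteins of nuclear speckles, in which Malat1 RNA gathers, 1 (3.33%) had a peak, against 0.715% of all genes, and it had one in both replicates, against 0.211% of all genes. This was Srsf7, which encodes a splicing factor of the SR family, and the site also lies within 1000 bp of a TSS of Ttc39d, so that the genes cannot be told apart. Its peaks formed a site at 80207083 to 80207440 of chromosome 17, with a fold of 8.47, a −log10 p of 18.2 and 32 fragments in replicate 1, and a fold of 8.02, a −log10 p of 15.9 and 25 fragments in replicate 2. Its folds were above the median of both lists and below those of Malat1. Son and Srrm2, which encode the scaffold proteins of the speckle, had no peak. As for the paraspeckle genes, the share over protein-coding genes alone was not computed. With 1 or 2 members in each list, the counts are too small for a comparison between lists, and none was made.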

How the data were processed

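The samples were 2 PHF10 ChIP-seq replicates and 1 IgG library from mouse brain. The authors trimmed reads (cutadapt), aligned them to mm10 (Bowtie 1), kept single alignments, removed duplicates (Picard), called peaks per replicate against IgG with MACS2, extending reads to 200 bp, and removed blacklisted regions. The deposited peak lists give positions, a score (10 times −log10 p, rounded down), the fold ratio over IgG, and −log10 p and −log10 q as made by the authors. Fragments at summits were solved from fold and p under the MACS2 model. This step recovered 120 of 120 simulated summits, and 80 of 80 planted CpG islands were found by the search for islands. The simulated summits were made under the same model, and the planted islands were long and dense in CpG. Both therefore check the calculation only, and not the model itself or islands near the limits. Peaks sharing at least 1 bp were merged. TSSs came from GENCODE M21, sequence from GRCm38.p6. Read depth is known only relative to IgG (1.38 and 1.14). Calculations were made in Python 3.11.15 (pandas 2.3.3, numpy 2.4.6, numba 0.67.0, scipy 1.17.1), and plots in matplotlib 3.10.9.

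Members, lists and alternatives were chosen with earlier results of these data known. Named by rule were both members, list genes with a peak, the nearest sites, the sites ranked above Malat1, the 5 sites most like it and the 5 highest without an island, and some genes that meet this rule are not reported here. The sites below it in rank, the other lncRNA sites, the other sites of chromosome 19, Dpf2 and list genes without a peak were named after their values were seen. The score was read only to check the lists. No group was compared with another, and no test was made.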

Additional observations from a re-analysis of the deposited data

How the results depend on the processing

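Of 47 alternative values computed for 11 results, 41 stayed within the spread between replicates or within 1.5 times the reported value, and 6 moved further. This tally is not a measure of stability. Where the spread was the limit, a value with either of the 2 replicates left out lies within it by construction. The count for the lncRNA list rests on Malat1, which was chosen for its peak. The fold at the Malat1 site was 12.7 on average, 11.4 to 14.1 with either replicate left out, and 19.1 as a plain ratio without the added 1, which is larger by construction. Its rank was 3 among shared sites and 3 to 5 with either replicate left out, where it was read in the remaining list alone; without replicate 1 it was 5 of 141. The distance of 379 bp to the nearest CpG island became 0 bp with islands of at least 100 bp, by construction of the shorter minimum. The 2 paraspeckle protein genes with a peak became 1 with either replicate left out (Zc3h6 without replicate 1) and 0 when a peak in both replicates was required. The count of 0 peaks at Neat1 did not change in any of the 8 alternatives tried, by construction. The peak nearest to any Neat1 start was 25181 bp away, and the widest distance tried was 10000 bp. No paired analysis was possible because the IgG control is a single library without a list.

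The lists hold called peaks only, with 2 replicates that share 1 IgG library, so that an error of that library enters both folds. A gene under the calling limit has no value, and Neat1 cannot be given a level. Solved fragment counts rest on the peak-calling model. Islands were called from the reference sequence and not from methylation.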
